A study of Mus musculus with 8 samples.

Results

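Genes of the hypoxia response and of glycolysis were followed in the small intestine of fetal mice that lack Plagl2, which encodes a transcription factor with zinc fingers. The 44 genes are the oxygen sensors and hypoxia-inducible factors (HIFs), 2 glucose transporters, the glycolytic enzymes, the PFKFB enzymes and a set of other HIF targets. A gene was measured by every probe set that the platform annotation pairs with its symbol and no other. That rule found 98 of the 45101 probe sets on the array and 41 of the 44 genes, out of 18194 genes with such a probe set. Gpi1, Eno1 and Pfkfb1 had none, and Ero1l was matched through its RefSeq synonym Ero1a.

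The samples were total RNA of whole small intestine at 18.5 days post coitum, from 4 Plagl2 knockout and 4 wild-type mice, with 1 Affymetrix MOE430 2.0 array each. The labels name no strain, Cre or treatment, do not say how the Plagl2 allele was made, and do not name the litters, so the p-values cover only the spread of these particular samples. The comparison asks what differs in these 2 pathways in the late fetal intestine when Plagl2 is absent.

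Cells sense oxygen through prolyl hydroxylases of the EGLN family, which mark the HIF alpha subunits for the VHL ubiquitin ligase while oxygen is present. When oxygen falls, HIF1A and EPAS1 (HIF2A) pair with ARNT, bind a short DNA core in the control regions of their targets and raise the transcription of glucose transporters, glycolytic enzymes and factors of blood vessel growth and mitochondrial turnover. Glycolytic enzymes also answer to many other inputs, and the absorptive epithelium of the intestine makes glucose as well as breaking it down.

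The HIF core can be looked for in the promoters. It was searched as ACGTG or GCGTG on either strand (CACGT or CACGC when read on the strand shown), in RefSeq windows of GRCm38.p6 that run from 250 bases before to 50 bases after each annotated start. A CACGTG counts once on each strand. Of the 44 genes, 41 had such a window, and Epas1, Slc2a3 and Ndrg1 are named only. At least 1 window held the core in 37 of these 41 genes (90.2%), in 6837 of the 10356 tested genes with a window (66.0%) and in 12628 of all 27025 genes with one (46.7%). ACGTG alone was found in 26 of the 41 genes (63.4%), in 28.9% of the tested genes and in 21.8% of all genes. By group the core stood in 14 of 17 glycolytic enzyme genes (82.4%) and in 12 of 12 other hypoxia target genes. The members include genes listed because they are HIF targets, so a high share was built into the list. Base composition and the number of windows per gene were also not matched, so these shares only describe the letters. The 250 bases before the start of 6 genes follow 5′ to 3′ on the gene's own strand, with the core in capitals. Pkm, P4ha1, Pdk1 and Hif3a are shown because their signal differed between genotypes, and Ldha and Bnip3 because they hold many cores but missed the threshold.
Pkm: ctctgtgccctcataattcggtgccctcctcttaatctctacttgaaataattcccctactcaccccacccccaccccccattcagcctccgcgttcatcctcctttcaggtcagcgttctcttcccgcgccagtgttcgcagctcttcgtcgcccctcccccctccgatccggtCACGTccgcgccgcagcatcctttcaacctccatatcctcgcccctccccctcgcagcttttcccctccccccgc
P4ha1: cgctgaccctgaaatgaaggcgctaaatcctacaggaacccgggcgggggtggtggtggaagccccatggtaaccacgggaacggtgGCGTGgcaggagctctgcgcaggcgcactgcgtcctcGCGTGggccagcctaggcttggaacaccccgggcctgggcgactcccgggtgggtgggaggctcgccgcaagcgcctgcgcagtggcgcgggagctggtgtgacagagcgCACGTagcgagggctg
Pdk1: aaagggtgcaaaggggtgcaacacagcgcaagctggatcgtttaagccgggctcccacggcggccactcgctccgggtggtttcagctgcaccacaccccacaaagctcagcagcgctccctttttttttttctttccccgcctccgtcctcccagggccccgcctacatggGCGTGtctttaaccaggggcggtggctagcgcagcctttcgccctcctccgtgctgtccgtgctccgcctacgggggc
Hif3a: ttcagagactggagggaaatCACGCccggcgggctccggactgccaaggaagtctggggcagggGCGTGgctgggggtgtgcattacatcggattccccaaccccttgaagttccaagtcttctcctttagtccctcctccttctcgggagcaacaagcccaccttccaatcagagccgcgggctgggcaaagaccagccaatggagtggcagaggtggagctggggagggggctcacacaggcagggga
Ldha: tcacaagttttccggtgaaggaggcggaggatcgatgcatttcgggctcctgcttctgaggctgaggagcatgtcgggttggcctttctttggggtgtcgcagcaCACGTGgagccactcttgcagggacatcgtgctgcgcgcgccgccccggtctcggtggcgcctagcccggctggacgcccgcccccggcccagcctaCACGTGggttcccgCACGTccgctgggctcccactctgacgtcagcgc
Bnip3: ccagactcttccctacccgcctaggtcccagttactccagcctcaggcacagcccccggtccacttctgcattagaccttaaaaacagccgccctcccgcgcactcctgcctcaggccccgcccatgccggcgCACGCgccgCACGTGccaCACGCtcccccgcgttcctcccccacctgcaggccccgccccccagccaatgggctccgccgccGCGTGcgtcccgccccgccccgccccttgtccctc

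The Pkm stretch (chr9:59656977-59657226, plus strand) holds 1 core, starting 75 bases before the start site. The P4ha1 stretch (chr10:59323046-59323295, plus strand) holds 3, at 163, 126 and 16 bases, and the Pdk1 stretch (chr2:71872974-71873223, plus strand) holds 1, at 78 bases. Hif3a (chr7:17062428-17062677, minus strand) has 2 of the GCGTG type, at 230 and 186 bases. Ldha (chr7:46845554-46845803, plus strand) and Bnip3 (chr7:138909507-138909756, minus strand) each hold 5 matches, with CACGTG counted on both strands. For Pkm, Pdk1 and Ldha, which each have 2 annotated windows, the stretch with the most matches is shown.

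Plagl2 itself was nearly absent from the knockout arrays. Its main probe set gave signals of 824, 817, 697 and 796 in the wild-type samples and of 3, 6, 5 and 11 in the knockouts (log2 fold change -5.18 ± 0.14 SE, adjusted p = 2.42e-09), and all 4 Plagl2 probe sets were apart between genotypes. Markers of enterocytes were strong throughout, with a summed signal over 10 genes of 45194 to 50857 in wild-type and 44364 to 54866 in knockout samples. Fabp1 and Fabp2, with wild-type means of 14000 and 10390, were its largest parts. Fabp1 lay at or near the highest signal of each array, so this sum is a weak measure of enterocyte content. Of the 10 only 1, Cdx1, was called lower (10%, against 8.5% of all genes tested). At an unadjusted p under 0.05 limma gave 1 higher and 2 lower, where 14.7% of all genes tested were higher and 15% lower. The arrays differed in other ways too. Xist signal, high only in female samples, was 1828 and 1410 in knockout replicates 2 and 3 and at most 47 elsewhere, so sex was not balanced. The 3′ end bias of the beta-actin and Gapdh control transcripts (mean log2 ratio of their 3′ to 5′ signals) was 0.017 to 0.098 in knockouts and -0.056 to 0.006 in wild-types. These ranges do not overlap, so a fit adjusted for this bias cannot fully separate it from genotype. Gapdh is also a member gene. Wild-type replicate 3 lay at -21.94 on the main principal component, against -44.7 to -43.29 for the other wild-types. The extraction text of every sample speaks of wild-type tissue, while titles and source names give 4 knockouts.

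Among the 40 member genes that could be tested, 10 were higher in knockout intestine, 1 was lower and 29 did not pass the threshold. A gene was called at an adjusted p under 0.05 in limma, by its brightest probe set. Of all 12838 genes tested, 6.6% were called higher and 8.5% lower, beside 10 members called higher (25%) and 1 called lower (2.5%). The members and lists were chosen with earlier results of these data known. Shares set beside the background, here and below, therefore only describe the lists. The groups did not overlap, with every knockout above every wild-type, in 13 member genes, against a background of 8.88%. Every knockout lay below every wild-type in 1 member gene, against 11.1% of all genes. The log2 fold change was positive for 31 of the 40, with a median of 0.29 beside 0.03 for all genes. Fold changes compare knockout with wild-type as differences of log2(signal + 16), which makes those of dim genes smaller. In whole tissue, fewer cells of a type and less RNA per cell cannot be told apart.

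**Figure D1:**
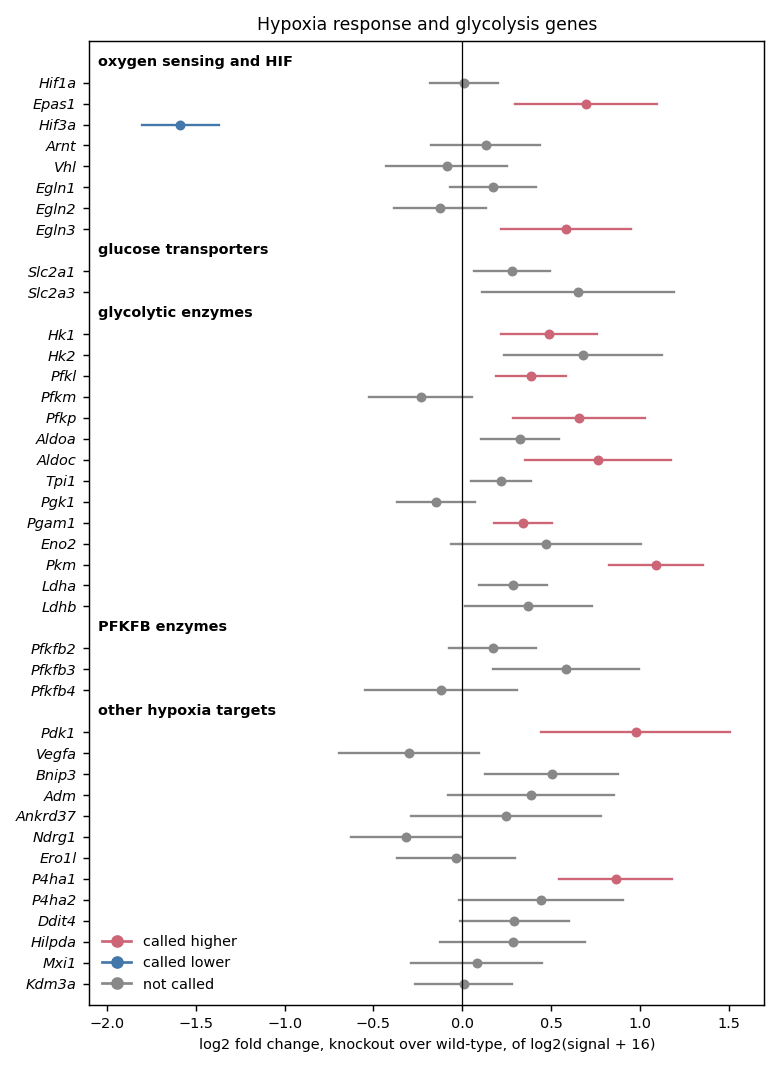
Log2 fold change (knockout over wild-type, of log2(signal + 16)) of the 40 tested genes in their 5 role groups, with 95% confidence intervals from limma and 4 arrays per genotype. Hif3a, at -1.59, is the 1 gene called lower, and Pkm, at 1.09, has the highest value of the 10 called higher.

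Of the 8 oxygen sensor and HIF subunit genes, 2 were called higher (25%, background 6.6%) and 1 lower (12.5%, background 8.5%). Hif3a was called lower, Epas1 and Egln3 were called higher, and Hif1a was level. The calls of Epas1 and Egln3 were lost in 10 and 11 of the 20 alternative settings. Hif3a encodes a HIF alpha subunit with splice forms that can restrain the other subunits. Its signals were 1214, 1394, 1192 and 1360 in wild-type samples and 399, 410, 393 and 474 in knockouts. The knockout values lay far below every wild-type value, at a mean of 419 ± 37.3 against 1290 ± 102 (SD, n = 4; log2 fold change -1.59 ± 0.10 SE, adjusted p = 1.37e-06 in limma). All 5 tested probe sets of Hif3a were called lower, at -1.93 to -0.57. The call was kept in all 20 alternative settings, at -1.68 to -1.43.

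Epas1, which encodes the HIF2A subunit, had signals of 525, 566, 332 and 529 in wild-type and 781, 806, 1009 and 598 in knockout samples. Wild-type replicate 3 was the lowest and knockout replicate 3 the highest, and the groups did not overlap (0.70 ± 0.18 SE, adjusted p = 0.0276). A second, dim probe set was not called (0.60, adjusted p = 0.333). Egln3, a prolyl hydroxylase that is itself induced by HIF, gave 1162, 1126, 1205 and 1464 in wild-type and 1383, 1974, 2615 and 1644 in knockout samples. Knockout replicate 1 lay below wild-type replicate 4, so the groups overlapped, yet the fit called it higher (0.58 ± 0.17 SE, adjusted p = 0.043), and its other probe set was called too (0.81, adjusted p = 0.0114). The calls of Epas1 and Egln3 did not survive every setting. Epas1 was not called without wild-type replicate 1 or without knockout replicate 1, 2 or 3 (adjusted p = 0.0534 to 0.0757), and Egln3 in the absence of wild-type 1, 2 or 3 or of knockout 2 or 3 (0.0618 to 0.12). In the 6 arrays without Xist signal they stood at 0.50 (adjusted p = 0.186) and 0.29 (adjusted p = 0.228). Adjusted for the 3′ end bias, Epas1 stood at 0.37 (adjusted p = 0.481) and Egln3 at 0.87 (adjusted p = 0.0641). By the mean of its probe sets Epas1 was not called (0.65, adjusted p = 0.112) and Egln3 was (0.69, adjusted p = 0.0215).

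The other 5 genes of this group were not called. Hif1a, the best known HIF alpha subunit, gave 998, 1024, 1124 and 1064 in wild-type and 1149, 988, 1003 and 1098 in knockout samples. These ranges overlap almost wholly (0.01, 95% confidence interval -0.18 to 0.20, adjusted p = 0.967). Arnt, the common partner subunit, was at 0.13 (adjusted p = 0.609) and Vhl at -0.09 (adjusted p = 0.775). The prolyl hydroxylase genes Egln1 and Egln2 were at 0.17 (adjusted p = 0.365) and -0.13 (adjusted p = 0.555). Messenger RNA says nothing of HIF1A protein, which is set mainly by its breakdown.

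**Figure D2:**
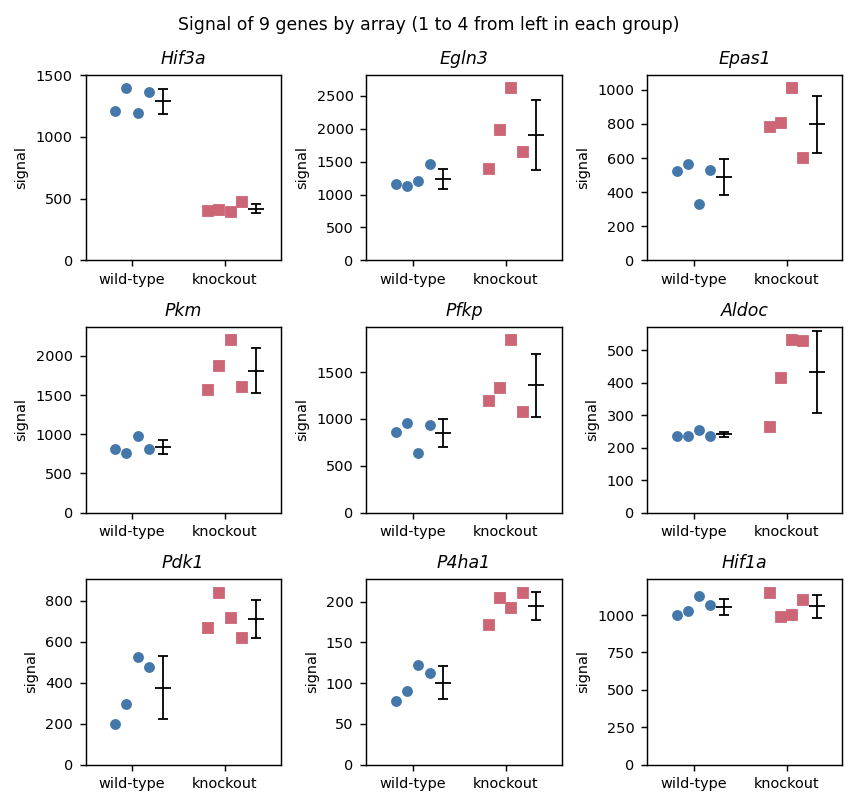
Signal (linear, arbitrary units, axis from 0) of 9 genes in each array, wild-type as circles and knockout as squares, replicates 1 to 4 from left to right, with mean and SD of 4 arrays as bars. Hif3a, Pkm and P4ha1 show wide gaps between the genotypes, Egln3 overlaps, and Hif1a lies at the same level in both.

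Neither glucose transporter passed the limma test by its brightest probe set, though both were higher at an unadjusted p under 0.05, as were 14.7% of all genes tested. Slc2a1, which encodes the widely expressed transporter GLUT1, had signals of 1410, 1216, 1537 and 1382 in wild-type and 1478, 1777, 1684 and 1799 in knockout samples. Only knockout replicate 1 fell within the wild-type range (0.28 ± 0.10 SE, adjusted p = 0.0905). Of its other probe sets, the next brightest was called higher with no overlap (0.46, adjusted p = 0.0281) and the dimmest was not (0.38, adjusted p = 0.155), and without wild-type replicate 3 the brightest was called too (0.33, adjusted p = 0.0402). Slc2a3 (GLUT3) was dim, at 45, 42, 65 and 40 against 70, 74, 58 and 154. Knockout replicate 4 was far above the rest (0.65 ± 0.25 SE, adjusted p = 0.118).

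Of the 14 glycolytic enzyme genes tested, 6 were higher in knockout intestine (42.9%, background 6.6%), 0 were lower and 8 did not pass. The log2 fold change was positive in 12 of the 14, the median was 0.38 and the range was -0.23 to 1.09. At an unadjusted p under 0.05 limma gave 11 higher and 0 lower, where 14.7% of all genes tested were higher and 15% lower. In 8 of the 14 every knockout lay above every wild-type, as in 8.88% of all genes tested. The 6 genes cover the entry of glucose (Hk1), the committed step (Pfkl and Pfkp), the aldolase step (Aldoc), the mutase step (Pgam1) and the last, ATP-yielding step (Pkm).

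Pkm, which encodes muscle-type pyruvate kinase in its M1 and M2 splice forms, had the highest fold change of the group. Its probe set gave 812, 756, 972 and 808 in wild-type and 1570, 1870, 2197 and 1607 in knockout samples. The lowest knockout was well above the highest wild-type, with means of 1811 ± 290 and 837 ± 93.5 (SD, n = 4; 1.09 ± 0.12 SE, adjusted p = 0.000103 in limma). It was called in all 20 alternative settings, at 0.91 to 1.32. The files do not resolve the splice forms.

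Hexokinase 1 (Hk1) phosphorylates glucose on entry and had signals of 161, 146, 167 and 125 in wild-type and 195, 226, 213 and 229 in knockout samples (0.49 ± 0.12 SE, adjusted p = 0.0228). The groups were apart, although its dimmer probe set was not called (0.46, adjusted p = 0.236). By the mean of its probe sets Hk1 was not called either (0.48, adjusted p = 0.069). The inducible hexokinase Hk2 missed the threshold (0.68 ± 0.20 SE, adjusted p = 0.0511), with wild-type signals of 97, 87, 164 and 92 and knockout signals of 171, 183, 138 and 243. Here wild-type replicate 3 stood above knockout replicate 3, and without that wild-type array Hk2 was called (0.86, adjusted p = 0.00636).

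Phosphofructokinase, the committed step, has 3 subunit genes. Pfkl, the liver-type subunit, gave 812, 762, 902 and 830 in wild-type and 1005, 1124, 1169 and 1039 in knockout samples (0.385 ± 0.09 SE, adjusted p = 0.0159). A second Pfkl probe set was also called (0.35, adjusted p = 0.0295) and the remaining, dim one was level (-0.03, adjusted p = 0.963). By the mean of its probe sets Pfkl was not called (0.24, adjusted p = 0.214). Pfkp, the platelet-type subunit, gave 866, 962, 634 and 935 against 1191, 1336, 1839 and 1077. All knockouts lay above all wild-types (0.66 ± 0.17 SE, adjusted p = 0.026), and 1 of its 2 other probe sets was called (0.68, adjusted p = 0.00253). Pfkm, the muscle-type subunit, had a negative value that was not called (-0.23, adjusted p = 0.3), at 287, 197, 255 and 213 against 207, 194, 211 and 181. Whether Pfkm differs from Pfkl and Pfkp in its change was not tested.

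Aldoc, the brain-type aldolase, had a narrow wild-type spread of 236, 236, 254 and 236, and knockout signals of 263, 415, 530 and 528. Knockout replicate 1 lay just above the wild-types and the other 3 knockouts far above (0.76 ± 0.19 SE, adjusted p = 0.0204). Aldoa, the ubiquitous aldolase, had 5 probe sets that disagreed. The brightest was not called (0.325 ± 0.10 SE, adjusted p = 0.0574), at 2867, 2965, 3578 and 3202 against 3530, 3975, 4627 and 3707. The next 3 were called higher at 0.50 to 0.53 (adjusted p = 0.0105 to 0.0121), and the dimmest was at -0.08 (adjusted p = 0.633).

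In the lower part of the pathway Pgam1, phosphoglycerate mutase, rose from 2732, 2578, 2842 and 2640 to 3136, 3391, 3687 and 3492. The change was small but the groups were clear of each other (0.34 ± 0.08 SE, adjusted p = 0.0111). Tpi1, triosephosphate isomerase, had wild-type signals of 3790 to 4126 and knockout signals of 4364 to 5273, and lactate dehydrogenase A (Ldha) had 5052 to 5830 and 6147 to 7913. In both genes all knockouts lay above all wild-types, but neither was called (Tpi1 0.22, adjusted p = 0.0973; Ldha 0.29, adjusted p = 0.0554). Pgk1, phosphoglycerate kinase, lay at -0.15 (adjusted p = 0.404), with wild-type signals of 4626 to 5357 and knockout signals of 3895 to 5496. The neuronal enolase Eno2 (0.47, adjusted p = 0.255) and the heart-type Ldhb (0.37, adjusted p = 0.179) were dim and not called. Gapdh is present only as 3 control probe sets, which stayed outside the fit. Its middle probe set gave 6449 ± 118 in the wild-types and 7519 ± 807 in the knockouts (SD, n = 4; exact permutation p = 0.0286, the smallest possible), its 3′ probe set 5674 ± 135 and 6683 ± 765 (exact permutation p = 0.0286) and its 5′ probe set 7592 ± 257 and 8442 ± 917 (exact permutation p = 0.0857).

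Apart from Pkm and Pgam1, the calls among the enzymes lay near the threshold. Pgam1 kept its call with any single array left out (adjusted p = 0.00889 to 0.0452). It was called in 16 of the 20 alternative settings and lost its call in 4. Without wild-type replicate 1, 2 or 4 or without knockout replicate 2, the number called higher was 3, 3, 4 and 2, and without wild-type replicate 3 or knockout replicate 3 it was 8. Single arrays ended the calls of Hk1 (without wild-type 2 or 4 or knockout 2 or 4, adjusted p = 0.0509 to 0.0744), of Pfkl (wild-type 1 or 2 or knockout 2, 0.0546 to 0.0621), of Pfkp (wild-type 1 or knockout 2, 0.0626 and 0.0681) and of Aldoc (wild-type 1, 2 or 4 or knockout 2, 0.0535 to 0.0586). In the 6 arrays without Xist signal Pkm alone was called, and the median log2 fold change was 0.365. There Hk1 stood at 0.46, Pfkl at 0.30, Pfkp at 0.43, Aldoc at 0.60 and Pgam1 at 0.29 (adjusted p = 0.0879 to 0.157). Adjusted for the 3′ end bias, Aldoc, Pgam1 and Pkm were still called and Hk1, Pfkl and Pfkp were not (adjusted p = 0.0502 to 0.321), while Aldoa was called (0.54, adjusted p = 0.0415).

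Markers of other cell types were read beside these genes. The 10 smooth muscle and mesenchyme markers all had positive values (0.07 to 0.61, median 0.38), with 0 called by limma. At an unadjusted p under 0.05 limma gave 4 of them higher, where 14.7% of all genes tested were higher. Their summed signal was 15117 to 23250 in wild-type and 18076 to 28419 in knockout samples. Of 10 skeletal muscle markers, 7 had a median signal under 25, among them Myog and Myh3. Ckm was called higher (0.64), 1 of 3 tested (33.3%, background 6.6%), and 2 of the 3 were higher at an unadjusted p under 0.05. For leukocytes the summed signal was 3884 to 5300 in wild-type and 1287 to 1839 in knockout samples, mostly Csf1r (-2.38). Csf1r and Adgre1 (-0.98) were called lower, 2 of the 8 markers (25%, background 8.5%). The other 6 were not called (-0.44 to -0.01), and 3 of the 8 were lower at an unadjusted p under 0.05 (background 15%). Endothelial markers summed to 1683 to 1928 and 1611 to 1959, with 0 of 10 called by limma and 0 at an unadjusted p under 0.05. Summed markers of enteric neurons and glia were 511 to 756 and 537 to 875, of erythroid cells 231 to 435 and 293 to 967, and of pancreas 289 to 2226 and 399 to 3863. Of these only S100b, a glial marker, was called (lower, -0.89), 1 of 7 markers of neurons and glia (14.3%, background 8.5%). An unadjusted p under 0.05 in limma gave 2 of these 7 higher and 1 lower, and 1 of 2 erythroid and 0 of 5 pancreas markers higher. Liver markers summed to 11138 to 14086 and 6949 to 16045. Of the 5 tested 2 were called lower (40%, background 8.5%), Ttr (-1.87) and Cps1 (-0.31). Cps1 and Ttr, with wild-type means of 7468 and 4951, made up most of the wild-type sum, so that sum is no measure of liver tissue. Ahsg, Tat and Hpx had a median signal under 25. Alb was at 15 to 122 in the wild-types and at 656, 4, 32 and 4646 in knockout replicates 1 to 4. The part of these cell types in the enzyme values was not tested.

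**Figure D3:**
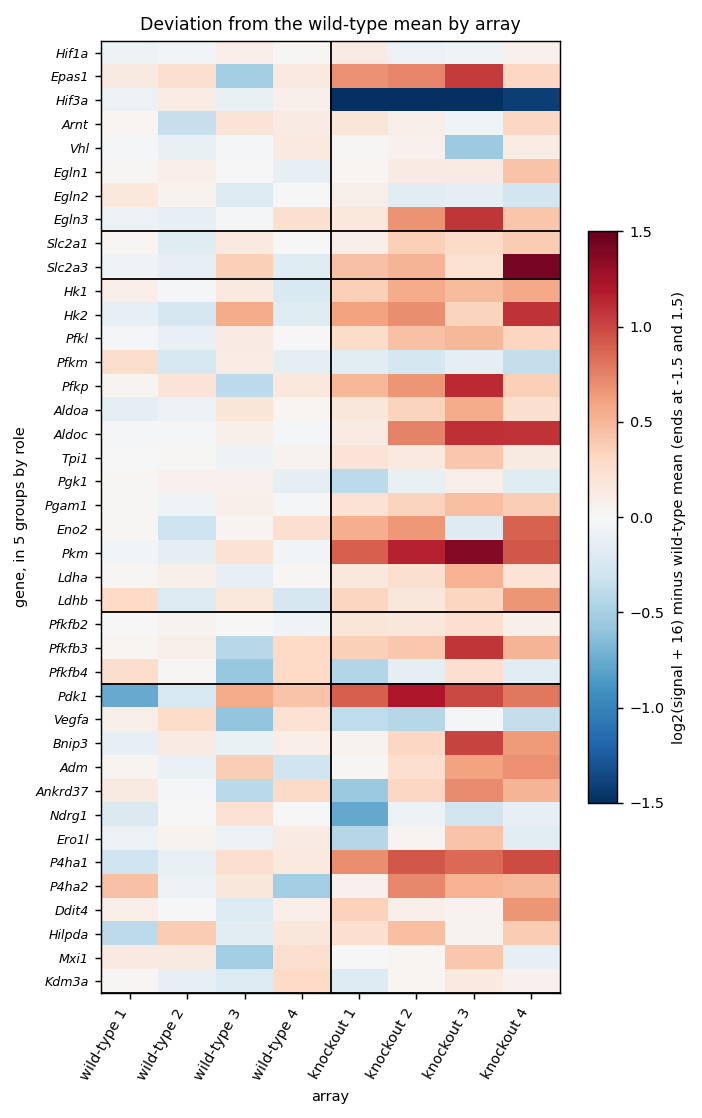
Deviation of log2(signal + 16) from the wild-type mean for each of the 40 tested genes (rows, in 5 role groups) in each of the 8 arrays (columns), with colours ending at -1.5 and 1.5. Red cells gather in the knockout columns of the glycolytic enzymes, and Hif3a is blue in all 4 knockouts.

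The bifunctional PFKFB enzymes set the level of fructose 2,6-bisphosphate, the activator of phosphofructokinase, and limma called 0 of the 3 genes tested (1 higher at an unadjusted p under 0.05, background 14.7%). Pfkfb3, the HIF-induced form, gave 165, 173, 117 and 202 in wild-type and 211, 218, 356 and 237 in knockout samples. The groups were apart by a small gap and the fit did not call it (0.58 ± 0.19 SE, adjusted p = 0.0682). Pfkfb2 was apart as well, at 119 to 131 against 133 to 153 (0.17, adjusted p = 0.374), but its 3 other probe sets lay at -0.11 to 0.15. Pfkfb4, another HIF target, was at -0.12 (adjusted p = 0.75).

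Of the 13 other hypoxia targets, 2 were higher (15.4%, background 6.6%), 0 were lower and 11 did not pass the limma test (3 higher and 1 lower at an unadjusted p under 0.05, background 14.7% and 15%). The median log2 fold change was 0.28 and the range was -0.32 to 0.975, with 10 of 13 positive. The 2 genes were Pdk1 and P4ha1, and for both every knockout lay above every wild-type.

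Pdk1 encodes a kinase that shuts off pyruvate dehydrogenase and so keeps pyruvate out of the mitochondrial cycle. Its wild-type signals were widely spread, at 201, 297, 526 and 479, and its knockout signals were 669, 839, 714 and 620 (0.975 ± 0.24 SE, adjusted p = 0.0222). All 3 of its tested probe sets were called higher, at 0.61 to 1.06. The call ended without wild-type replicate 2 or knockout replicate 2 (adjusted p = 0.0724 and 0.0742), and in the 6 arrays without Xist signal Pdk1 stood at 0.845 (adjusted p = 0.143). P4ha1, a collagen prolyl hydroxylase subunit, rose from 78, 91, 122 and 112 to 171, 204, 192 and 211. The lowest knockout was clear of the highest wild-type (0.86 ± 0.15 SE, adjusted p = 0.00211). Its second probe set was called (0.65, adjusted p = 0.0461), and the gene was called in all 20 alternative settings at 0.655 to 1.18. The related subunit gene P4ha2 was not called (0.44, adjusted p = 0.214).

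Bnip3, a mitophagy receptor, gave 975, 1153, 987 and 1140 in wild-type and 1097, 1321, 2154 and 1659 in knockout samples. Knockout replicate 1 lay within the wild-type range (0.50 ± 0.17 SE, adjusted p = 0.0841), and without that array Bnip3 was called (0.65, adjusted p = 0.0224). Vegfa, the main growth factor for blood vessels, had a negative value, at 555, 632, 338 and 611 against 395, 382, 507 and 403 (-0.30, adjusted p = 0.333). Wild-type replicate 3 was the lowest of the 8 arrays, and without it Vegfa was called lower (-0.50, adjusted p = 0.0153). Ndrg1, a stress-induced gene, was negative in 5 of 5 probe sets and called in none (-0.32 by the brightest, adjusted p = 0.188).

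The remaining 7 targets overlapped between genotypes. Ddit4, which restrains mTORC1, was at 0.29 (adjusted p = 0.217) and Adm, the vasodilator peptide adrenomedullin, at 0.39 (adjusted p = 0.285). Hilpda, a lipid droplet protein, was at 0.28 (adjusted p = 0.381) and Ankrd37 at 0.245 (adjusted p = 0.583). Mxi1, a MYC antagonist, was at 0.08 (adjusted p = 0.812), the histone demethylase Kdm3a at 0.01 (adjusted p = 0.979) and the disulfide oxidase Ero1l at -0.03 (adjusted p = 0.917).

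Set side by side, 6 of 14 glycolytic enzymes and 2 of 13 other targets were called higher, with medians of 0.38 and 0.28 and ranges that largely overlap. No test of the difference between the 2 lists was made. By array, the mean deviation of the 14 enzymes from the wild-type mean was 0.03, -0.08, 0.08 and -0.04 in wild-type replicates 1 to 4. In the knockouts it was 0.27, 0.41, 0.49 and 0.45, so every knockout was above every wild-type. For the 13 other targets it was -0.07, 0.02, -0.05 and 0.10 in wild-types and -0.001, 0.30, 0.42 and 0.34 in knockouts. Knockout replicate 1 was thus inside the wild-type range for the other targets and outside it for the enzymes. Knockout replicate 3 held the highest signal of all 8 arrays in 9 of the 14 enzymes and in 17 of the 40 members, and knockout replicate 4 in 11 of the 40. With knockout replicate 4 left out, the median of the other targets was 0.17 and that of the enzymes 0.34. With wild-type 3 and knockout 4 left out together, the median of the other targets was 0.10 and that of the enzymes 0.39.

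**Figure D4:**
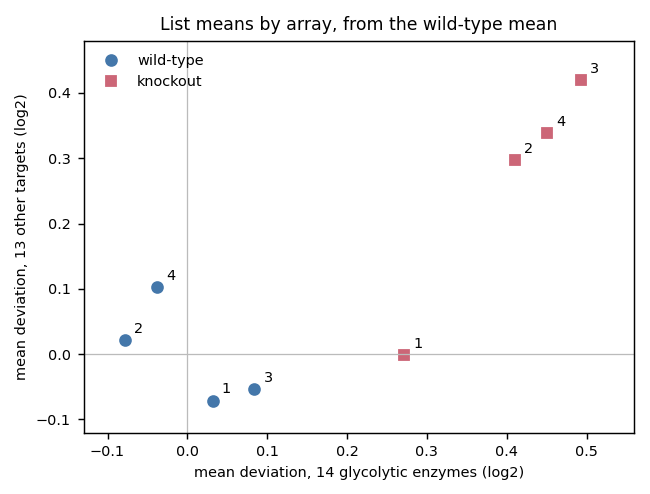
Mean deviation from the wild-type mean (log2 units) of the 14 glycolytic enzymes (horizontal) and the 13 other hypoxia targets (vertical), 1 point per array, labelled with its replicate number. Knockouts 2 to 4 lie at the upper right, while knockout 1 lies to the right at the wild-type level of the other targets.

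Further genes of these pathways were called in both directions. Among 31 further HIF targets 6 were called higher (19.4%, background 6.6%) and 4 lower (12.9%, background 8.5%), with a median of 0.10. Car9, a membrane carbonic anhydrase and a classical hypoxia marker, rose from 128, 127, 97 and 149 to 653, 590, 773 and 471 (2.17 ± 0.16 SE, adjusted p = 5e-06). Ak4, a mitochondrial adenylate kinase, rose from 63, 71, 89 and 71 to 243, 332, 401 and 330 (1.92 ± 0.16 SE, adjusted p = 1.05e-05), and Vldlr, a lipoprotein receptor, rose as well (0.91, adjusted p = 0.000764). Knockout and wild-type arrays were far apart in Car9 and Ak4. Hmox1, heme oxygenase 1, fell from 134, 179, 129 and 155 to 48, 49, 76 and 48 (-1.22 ± 0.17 SE, adjusted p = 0.000432). Car12, another membrane carbonic anhydrase, fell too (-0.81, adjusted p = 0.00222), but missed the threshold after adjustment for the 3′ end bias (adjusted p = 0.0611). Hmox1 is also expressed by macrophages. The leukocyte marker sum given above was lower in the knockouts, mostly through Csf1r, and 6 of the 8 markers were not called. The part of these cells in the Hmox1 value was not tested.

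Of 10 tested genes that modify HIF or help it act, 1 was called lower, a share of 10% that is close to the background of 8.5%. Hif1an, the asparagine hydroxylase that blocks HIF from its coactivators, fell from 470, 440, 339 and 411 to 226, 229, 282 and 219 (-0.75 ± 0.13 SE, adjusted p = 0.00216). The groups were apart, and the call was kept in all 20 alternative settings.

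The further genes of glycolysis and gluconeogenesis had a median of -0.32, with 3 of 19 called higher (15.8%, background 6.6%) and 6 lower (31.6%, background 8.5%). Pklr, the liver and red cell pyruvate kinase, fell from 1183, 991, 1057 and 1162 to 348, 261, 410 and 296 (-1.71 ± 0.13 SE, adjusted p = 7.34e-06), while Pkm rose. Every knockout lay below every wild-type in Pklr and above every wild-type in Pkm. Fbp1, fructose bisphosphatase of gluconeogenesis, fell from 6282, 6347, 3512 and 6977 to 993, 1079, 1499 and 436 (-2.59 ± 0.32 SE, adjusted p = 0.000219), and Slc37a4, the glucose 6-phosphate transporter, fell from 1124 ± 156 to 442 ± 68.2 (SD, n = 4; -1.32, adjusted p = 6.28e-05). Among those that rose were Slc2a5, the fructose transporter GLUT5 (51, 50, 60 and 83 to 412, 386, 476 and 262; 2.37 ± 0.19 SE, adjusted p = 9.1e-06), and Eno3, the muscle-type enolase (60, 74, 62 and 55 to 226, 369, 296 and 263; 1.94 ± 0.16 SE, adjusted p = 9.15e-06). In Slc2a5 and Eno3 the genotypes were far apart.

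Among 13 genes of pyruvate and lactate handling 2 were called higher (15.4%, background 6.6%) and 3 lower (23.1%, background 8.5%), with a median of -0.04. Slc16a3, the lactate exporter MCT4 and a HIF target, rose from 48, 36, 50 and 54 to 116, 124, 205 and 134 (1.33 ± 0.18 SE, adjusted p = 0.000493). Pdk4, a further pyruvate dehydrogenase kinase, was higher (1.07 ± 0.20 SE, adjusted p = 0.00348), at 155, 123, 70 and 104 against 298, 221, 253 and 219. Adjusted for the 3′ end bias, Pdk4 was not called (0.54, adjusted p = 0.223). Pdk3 was lower (-0.495, adjusted p = 0.0209), as were the pyruvate dehydrogenase subunit genes Pdha1 (-0.38, adjusted p = 0.025) and Pdhx (-0.49, adjusted p = 0.0332). The calls of these 3 were lost in single array omissions and in other settings. Pdk3 was not called without wild-type 1 or 4 or knockout 1 (adjusted p = 0.0534 to 0.0751). Pdha1 was not called without wild-type 1, 2 or 4 or knockout 1 or 2 (0.0521 to 0.0853). Pdhx lost its call without any array but wild-type 3 or knockout 1 (0.0549 to 0.0908). All 3 calls were also lost after adjustment for the 3′ end bias and with the replicate number as a block. Pdk3 and Pdhx were not called after adjustment for Xist or in the arrays without Xist signal, while Pdha1 was. The calls of Pdk3, Pdha1 and Pdhx held in 13, 12 and 8 of the 20 alternative settings. Of 7 pentose phosphate genes 1 was called (14.3%, background 6.6% higher), Tkt (transketolase), higher at 6199 ± 612.5 against 4576 ± 293 (SD, n = 4; 0.43 ± 0.08 SE, adjusted p = 0.00525).

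**Figure D5:**
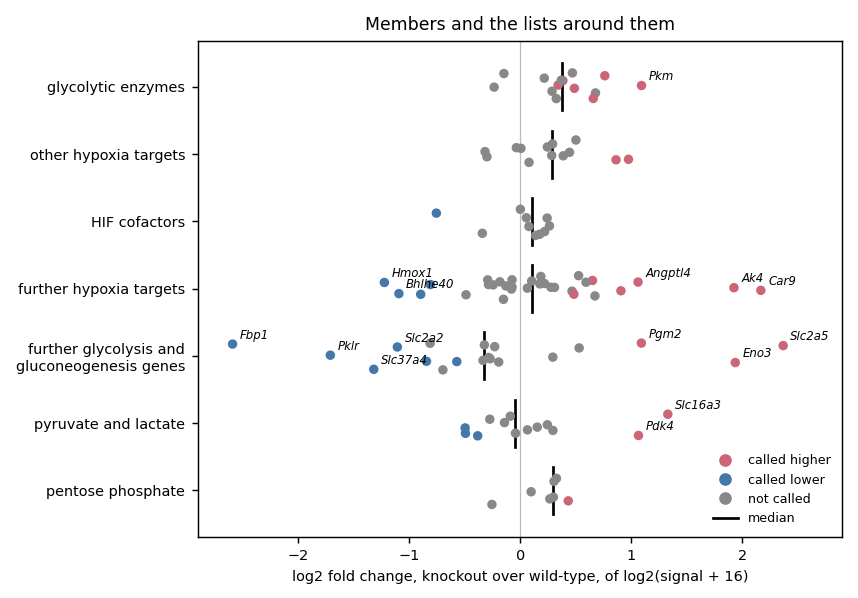
Log2 fold change (knockout over wild-type, of log2(signal + 16)) of the genes in 7 lists, 1 point per gene with the vertical place within a list arbitrary, and the list median as a bar. Names mark called genes beyond 1 in size. The glycolytic enzymes centre on 0.38, while the further glycolysis and gluconeogenesis genes centre on -0.32 and reach from Fbp1 at -2.59 to Slc2a5 at 2.37.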

How the data were processed

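Affymetrix MOE430 2.0 arrays measured 8 samples. The authors deposited 1 signal intensity for each probe set and array, linear and scaled so that each array's mean, trimmed by 2% at each end, was about 150. The signal algorithm is not given in the sources used here.

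Signals were taken as log2(signal + 16). The 64 control probe sets and the 40% with the lowest mean (under about 23) were left out. Each of the remaining 27022 was fitted for genotype with limma 3.58.1 in R 4.3.3 (eBayes with an intensity trend), two-sided, with Benjamini-Hochberg adjustment over all 27022. A gene was represented by its brightest tested probe set, and 6 dim member probe sets were not tested. The fit was tested on simulated data. The members and lists were chosen with earlier results of these data known. The text names Plagl2, all members, and up to 5 called genes per further list by smallest p. Single values were compared by exact two-sided permutation (smallest p 0.0286). The number of arrays limits the precision. There were 20 alternative settings: filters, offsets, normalization, covariates, the replicate block, the trend, gene means and left-out arrays.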

Additional observations from a re-analysis of the deposited data

Results flagged for a closer look

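Within 4 arrays of a genotype, a signal far from the other 3 was found in 5 of the 82 groups of values examined, where chance flags about 1 in 20. Wild-type replicate 3 was the array in 4 of them. Its Epas1 signal was 332 (other wild-types 525 to 566) and its Mxi1 signal 588 (931 to 1016), while its Hk2 signal was 164 (87 to 97) and its Aldoc signal 254 (236 in each of the others). The Aldoc gap is small beside the knockout values of 263 to 530. In knockout replicate 3 the Vhl signal was 95 (other knockouts 147 to 158).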

How the results depend on the processing

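The genes Hif3a, Pkm and P4ha1 kept their direction and call in all 20 alternatives, and no member called in the report changed direction in any of them. The number of glycolytic enzymes called higher (6) was 10 with quantile normalization, 3 without the intensity trend, and 1 after adjustment for Xist, as in the 6 arrays that lack it. With the replicate number as a block it was 2, and with single arrays left out it ranged from 2 to 8. Same-numbered samples did not deviate together (correlations of -0.27 to -0.01), so the block pairs nothing known. The 10 members called higher became 4 with the block, 2 adjusted for Xist, 2 in the 6 arrays lacking Xist, 6 adjusted for 3′ end bias and 4 without the trend (3 to 12 with single arrays left out). The 2 other targets called higher became 1 when adjusted for Xist, in the 6 arrays lacking it and without the trend (1 to 3 with single arrays left out). Of the other targets 0 were called lower, but 1 (Vegfa) without wild-type 3 and knockout 4 (0 to 1 with single arrays left out), which made 2 members lower in all (1 to 2). The median of the glycolytic enzymes (0.38) was 0.52 when adjusted for 3′ end bias and 0.33 to 0.425 with single arrays left out. Over all genes, the 847 called higher became 471 adjusted for Xist, 511 without the Xist arrays, 295 adjusted for 3′ end bias and 455 with the block, and left-out arrays gave 535 to 1194. Genes called lower (1091) were 567 adjusted for 3′ end bias, 705 with the block and 780 to 1327 with single arrays left out. The 6-array fit has 2 knockouts. The cause of each shift was not tested.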
